A study of Mus musculus with 6 samples.

Results

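Cortical neuropeptide genes are described here in cortex taken from C57BL/6 mice with a stroke made by occluding the middle cerebral artery (MCAO). The 10 genes (Sst, Vip, Npy, Cck, Tac1, Penk, Pdyn, Crh, Cort and Nts) were taken by their symbols from a count table of 24421 genes, and all 10 were found. The control group was 3 samples of MCAO mice treated with green fluorescent protein (GFP). The other group was 3 samples of MCAO mice treated with NeuroD1, a proneural transcription factor. Per the series title the NeuroD1 gene was given intravenously. All 6 samples carry the stroke, so the comparison holds no uninjured tissue. It asks whether NeuroD1 delivery goes with another level of the peptide genes that mark inhibitory and excitatory neurons of the injured cortex. Which vector and promoter carried the gene, how long after the stroke the tissue was taken, and how old and of which sex the mice were is not given in the sources used here. Whether every sample is a different mouse is not labelled either, and p-values then reflect only how these samples vary, some of which may be technical.

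Neuropeptides are cut from larger precursor proteins in dense core vesicles and act on G protein-coupled receptors. In the cortex they are best known as markers of GABAergic interneurons. Somatostatin (Sst), cortistatin (Cort) and neuropeptide Y (Npy) are made by partly overlapping interneurons, and vasoactive intestinal peptide (Vip) and corticotropin-releasing hormone (Crh) by others. Cholecystokinin (Cck) is made by interneurons and by many excitatory cells. The enkephalin (Penk), dynorphin (Pdyn), tachykinin (Tac1) and neurotensin (Nts) precursors are made by cortical neurons and at higher levels by neurons of the striatum and other regions below the cortex. In bulk tissue, fewer cells of a type and less RNA per cell cannot be told apart.

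The promoters of Sst, Cort and Nts are printed because Cort and Nts were the members whose groups did not overlap, and Sst encodes the peptide most closely related to cortistatin. Each is the RefSeq window of 300 bases on GRCm38.p6, from 250 bases before to 50 bases after the start site, written 5′ to 3′ on the gene's strand. Capitals mark the core of the cyclic AMP response element, TGACG or its reverse complement CGTCA.
Sst, chr16:23890795-23891094, minus strand: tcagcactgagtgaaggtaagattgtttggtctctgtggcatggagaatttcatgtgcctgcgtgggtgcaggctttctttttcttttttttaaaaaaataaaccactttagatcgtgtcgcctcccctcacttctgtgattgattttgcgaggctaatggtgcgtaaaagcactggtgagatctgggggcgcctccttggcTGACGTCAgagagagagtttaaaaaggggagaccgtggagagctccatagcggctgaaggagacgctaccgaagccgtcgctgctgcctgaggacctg
Cort, chr4:149126714-149127013, minus strand: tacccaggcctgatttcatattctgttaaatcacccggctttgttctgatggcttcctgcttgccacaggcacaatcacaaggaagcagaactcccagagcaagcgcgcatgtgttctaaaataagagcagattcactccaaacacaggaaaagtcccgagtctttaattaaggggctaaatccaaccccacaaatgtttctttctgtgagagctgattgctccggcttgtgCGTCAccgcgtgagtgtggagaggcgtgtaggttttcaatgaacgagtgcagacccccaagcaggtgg
Nts, chr10:102490369-102490668, minus strand: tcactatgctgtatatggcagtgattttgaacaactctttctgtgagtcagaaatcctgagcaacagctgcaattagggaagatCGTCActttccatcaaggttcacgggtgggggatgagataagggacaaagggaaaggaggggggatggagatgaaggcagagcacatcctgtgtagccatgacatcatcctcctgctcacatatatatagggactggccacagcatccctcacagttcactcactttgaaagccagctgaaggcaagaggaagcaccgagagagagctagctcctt
The Sst window held the full palindrome TGACGTCA, in which both cores overlap, starting 48 bases before the start site. The Cort window held 1 core, starting 18 bases before the start site, and the Nts window 1 core, starting 166 bases before it. Windows were given for 8 of the 10 members, 9 windows in all, and 6 of the 8 genes held a core in at least 1 window (Sst, Vip, Cck, Tac1, Cort and Nts). Of all 32841 RefSeq windows of the same length 20.8% held a core, which is a share of windows and not of genes. The full palindrome occurred in 1.79% of all windows and, among the members, in Sst alone. The E-box CAGATG or CATCTG, of the type that NeuroD1 binds, was in the windows of Cck and Tac1 and in 17.2% of all windows. CAGCTG occurred in the Nts window and in 16.3% of all windows. These matches describe the letters of a window and not binding.

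The libraries held 7753101 to 13440244 counts, and each NeuroD1 library was deeper than each GFP library. Neurod1, the delivered gene, was at 6.48, 3.87 and 5.43 CPM (counts relative to library size, with TMM scaling factors) in GFP replicates 1, 2 and 3 and at 48.5, 14.6 and 38.4 CPM in NeuroD1 replicates 1, 2 and 3. The excitatory neuron marker genes summed to 4912 to 7550 CPM with GFP and 2573 to 6565 CPM with NeuroD1, and none of the 13 was at 0. Most of that sum came from Camk2a, Nrgn and Slc17a7, with GFP means of 2581, 1992 and 1036 CPM. NeuroD1 replicate 2 stood apart: its pan-neuronal markers summed to 2184 CPM against 3234 to 6416 CPM in the other 5 libraries, and its meningeal fibroblast markers to 8122 CPM against 984.9 to 3712 CPM. GFP replicate 2 had the most choroid plexus RNA (820.8 CPM in sum, against 19.8 to 144.6 CPM in the others), the dentate gyrus marker C1ql2 at 47.4 CPM (0.97 to 2.15 CPM in the others), and 7.25% of its counts in the ribosomal RNA precursor Rn45s (0.22% to 1.22% in the others). Values without these libraries are given for the members.

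Per kilobase of annotated exon, Cck, Sst and Npy were the most abundant members in the GFP cortex, at 182.7 ± 18.0, 161.4 ± 30.3 and 145.3 ± 27.5 CPM per kilobase (SD, n = 3), and their ranges over the 3 libraries overlapped. Penk followed at 12.4 ± 3.97, below every Npy value and above every Vip value. Vip (5.27 ± 1.27), Pdyn (4.01 ± 0.41) and Cort (2.88 ± 1.10) overlapped in neighbouring pairs. Crh (1.66 ± 0.30) and Tac1 (1.13 ± 0.39) also overlapped with each other, and Nts was last at 0.13 ± 0.11. With NeuroD1 the first 4 places were held by Npy, Cck, Sst and Penk, each overlapping the next. Cort was last there, at 0.40 ± 0.35 CPM per kilobase, behind Nts at 0.94 ± 0.42, and these last ranges overlapped too.

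**Figure D1:**
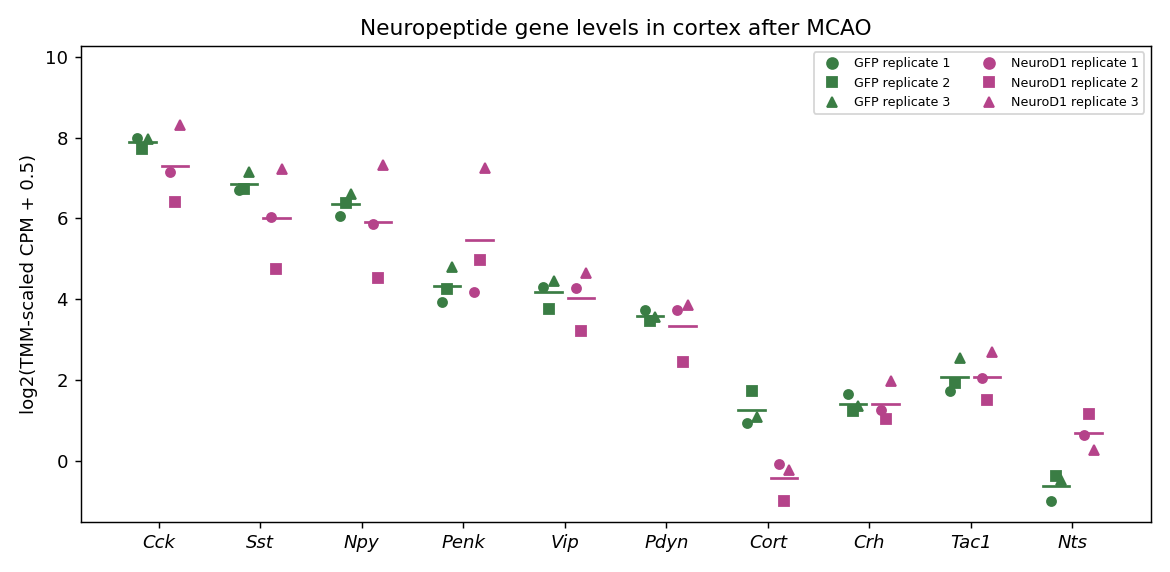
TMM-scaled CPM of each neuropeptide gene on a log2(CPM + 0.5) axis, with genes ordered by their GFP level per kilobase of exon; each symbol is 1 library and each bar the mean of the 3 log2 values of a group. The GFP libraries lie close together, the NeuroD1 libraries spread widely with replicate 3 at the top and replicate 2 at the bottom for most genes, and the groups are apart for Cort and Nts.

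Compared between the groups, 8 of the 10 members had overlapping levels, Cort was at a lower level in each NeuroD1 library and Nts at a higher one. In the quasi-likelihood test of edgeR, with p adjusted by Benjamini-Hochberg over 14852 genes, 0 of the 9 tested members passed (Nts had too few counts to be tested), as did 0% of all genes. The unadjusted p was under 0.05 in 2 members, Cort and Penk, against 24% of all tested genes (12.5% higher and 11.5% lower with NeuroD1). DESeq2 called 1 member, Cort, against 8.99% of the genes it tested (5.07% higher and 3.93% lower), and limma-voom called 0 members and 0% of all genes. Among the 9 tested members 3 had a fitted level above and 6 below that of GFP, with a median log2 fold change of -0.05, against 0.02 over all tested genes. Separate groups were found for 1 of the 9, Cort, against 29.6% of all tested genes (14.2% higher and 15.3% lower). Cort is among the 9 only through its GFP libraries, so the filter on low counts already favoured its lower level. The same filter left out Nts, which was higher with NeuroD1. By these counts the share of differences among the members lay near or below that among all genes.

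Sst, whose peptide is released by interneurons onto the dendrites of pyramidal cells (chromosome 16, 23889573 to 23890958, minus strand, GRCm38), was at 102.8, 104.7 and 141.6 CPM in GFP replicates 1, 2 and 3 and at 65.6, 26.3 and 148.0 CPM in NeuroD1 replicates 1, 2 and 3. Of the NeuroD1 libraries, 2 lay below all GFP libraries and replicate 3 lay above them. The log2 fold change was -0.54 (SE 0.52, 95% interval -1.73 to 0.65; adjusted p = 0.527), and single libraries moved it: without NeuroD1 replicate 3 it was -1.33 (adjusted p = 0.093) and without NeuroD1 replicate 2 it was -0.12 (adjusted p = 0.837). Npy, a peptide of many Sst interneurons and of neurogliaform cells (chromosome 6, 49822710 to 49829507, plus strand), followed the same order, at 66.2, 83.1 and 97.4 CPM with GFP and 58.1, 22.4 and 160.7 CPM with NeuroD1. Its lowest and its highest library were thus both from the NeuroD1 group, 7.16-fold apart, while the GFP libraries were 1.47-fold apart. The difference between the groups was -0.03 (SE 0.58, interval -1.36 to 1.30; adjusted p = 0.978), and it was 0.42 without NeuroD1 replicate 2 (adjusted p = 0.504) and -1.02 without NeuroD1 replicate 3 (adjusted p = 0.156).

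Cck (chromosome 9, 121489824 to 121495694, minus strand) was at 255.0, 211.6 and 248.8 CPM with GFP and at 142.5, 84.8 and 314.8 CPM with NeuroD1. As for Sst, NeuroD1 replicates 1 and 2 lay below the GFP range and replicate 3 above it (log2 fold change -0.40, SE 0.43, interval -1.38 to 0.58; adjusted p = 0.575). Without NeuroD1 replicate 3 the log2 fold change of Cck was -1.06 (adjusted p = 0.0784), and without NeuroD1 replicate 2 it was -0.056 (adjusted p = 0.923). Vip, the peptide of interneurons that inhibit other interneurons (chromosome 10, 5639218 to 5647617, plus strand), was at 19.2, 13.1 and 21.4 CPM with GFP and at 18.8, 8.81 and 24.4 CPM with NeuroD1. Its groups overlapped almost entirely, with NeuroD1 replicate 2 lowest (-0.05, SE 0.38, interval -0.91 to 0.81; adjusted p = 0.946).

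Crh, the stress peptide that some cortical interneurons make (chromosome 3, 19693401 to 19695396, minus strand), was at 2.63, 1.87 and 2.06 CPM with GFP and at 1.88, 1.55 and 3.41 CPM with NeuroD1. These levels rest on 14 to 38 counts per library, and their difference was 0.05 (SE 0.43, interval -0.93 to 1.03; adjusted p = 0.949). Tac1, the precursor of substance P and neurokinin A (chromosome 6, 7554879 to 7565834, plus strand), was at 2.84, 3.34 and 5.32 CPM with GFP and at 3.62, 2.32 and 6.01 CPM with NeuroD1 (0.06, SE 0.44, interval -0.95 to 1.06; adjusted p = 0.947). Pdyn, the dynorphin precursor (chromosome 2, 129686565 to 129699844, minus strand), was at 12.9, 10.6 and 11.3 CPM with GFP and at 12.9, 4.93 and 14.1 CPM with NeuroD1. Only NeuroD1 replicate 2 left the range that the other 5 libraries span for Pdyn, 10.6 to 14.1 CPM (-0.12, SE 0.38, interval -0.99 to 0.75; adjusted p = 0.864). The intervals give the differences these data allow, and a p that misses the threshold does not show that the levels are equal. The signs of the Crh and Tac1 differences flipped with upper quartile scaling. Without NeuroD1 replicate 2 the log2 fold changes of Vip, Crh, Tac1 and Pdyn were 0.27, 0.26, 0.33 and 0.22. Without GFP replicate 2 the values of Sst, Npy, Cck and Vip were -0.61, -0.024, -0.48 and -0.23, and those of Crh, Tac1 and Pdyn were -0.043, -0.030 and -0.18. The adjusted p of these values lay between 0.540 and 0.990.

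**Figure D2:**
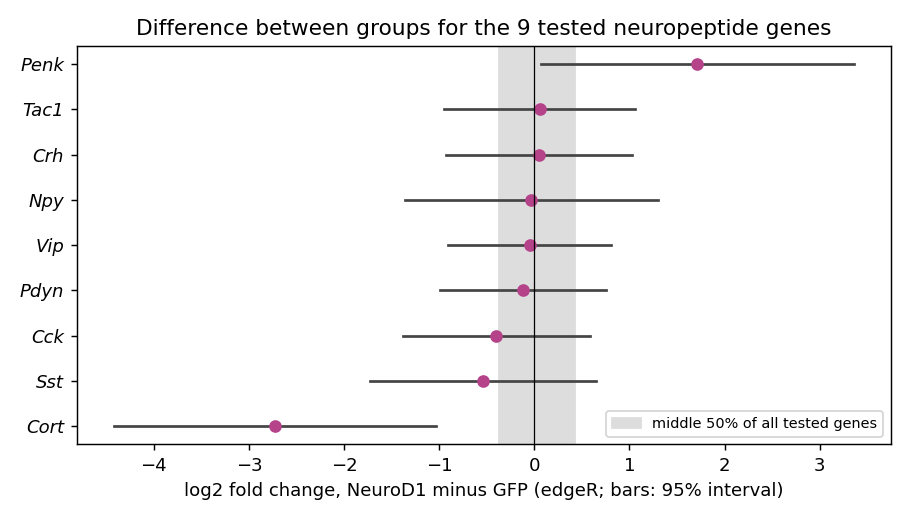
Fitted log2 fold change (NeuroD1 minus GFP) of the 9 tested members with its 95% interval; the grey band spans the middle 50% of all 14852 tested genes, from -0.37 to 0.43. The intervals of Cort (-4.42 to -1.03) and Penk (0.07 to 3.36) do not include 0 before adjustment, and the other 7 do.

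Penk, the enkephalin precursor (chromosome 4, 4133531 to 4138819, minus strand), was at 14.8, 18.4 and 27.4 CPM with GFP and at 17.6, 30.9 and 150.6 CPM with NeuroD1. A single library, NeuroD1 replicate 3, held 1678 Penk counts against 138 to 319 in the others, while NeuroD1 replicate 1 lay inside the GFP range. The log2 fold change was 1.71 (SE 0.72; unadjusted p = 0.0425, adjusted p = 0.196), a 3.28-fold higher fitted level. Without NeuroD1 replicate 3 it was 0.27 (SE 0.36; adjusted p = 0.646), and it was 2.06 without NeuroD1 replicate 2 and 1.65 without GFP replicate 2. Penk is also a marker of striatal neurons that carry the dopamine receptor Drd2 and the adenosine receptor Adora2a. In NeuroD1 replicate 3 these genes were at 2.42 CPM (Drd2) and 11.2 CPM (Adora2a, named after its values were seen), against 0.67 to 1.45 and 3.31 to 7.71 CPM in the other 5 libraries. The sum of the 10 striatal markers was 217.4 CPM there, against 102.3 to 206.1 CPM in the others, and none of these markers was at 0 in all libraries. Meningeal fibroblasts can also express Penk, and their 10 markers summed to 1613 CPM in that library, within the range of the others (984.9 to 8122 CPM). The parts of striatal and of meningeal RNA in the Penk value were not tested. Wfs1, a gene of hippocampal area CA1 and of some cortical neurons, was also highest in that library, at 374.9 CPM against 51.8 to 194.4 CPM. It was 1 of 3 among the 8 hippocampal markers that were highest there. The part of hippocampal RNA in the Penk value was not tested.

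Cort encodes cortistatin, which shares its receptor-binding core with somatostatin (chromosome 4, 149125034 to 149126763, minus strand). Its GFP libraries held 14, 21 and 15 counts and its NeuroD1 libraries 6, 0 and 4, or 1.42, 2.80 and 1.63 CPM against 0.45, 0 and 0.36 CPM. Every NeuroD1 library was below every GFP library, although each NeuroD1 library was deeper. The count of 0 in NeuroD1 replicate 2 allows up to 0.29 CPM (3 counts). The log2 fold change was -2.73 (SE 0.74), with an unadjusted edgeR p of 0.00575, an adjusted p of 0.138 and a DESeq2 adjusted p of 0.0217. Summed over libraries, Cort was 6.54-fold lower with NeuroD1 (95% interval 3.28 to 14.5, exact binomial, counting error only). It lay between -3.29 and -2.20 on the log2 scale whichever library was left out (-2.20 without NeuroD1 replicate 2 and -2.39 without GFP replicate 2). Cort passed the filter on low counts through its GFP libraries alone, so that its passing already favours a difference.

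Nts, the neurotensin precursor (chromosome 10, 102481756 to 102490486, minus strand), had 0, 2 and 2 counts with GFP and 14, 18 and 8 counts with NeuroD1, or 0, 0.27 and 0.22 CPM against 1.05, 1.74 and 0.72 CPM. All NeuroD1 libraries exceeded all GFP libraries, and the count of 0 in GFP replicate 1 allows up to 0.30 CPM. Summed over libraries, 40 counts against 4 gave a ratio of 7.64 (95% interval 2.76 to 29.4, exact binomial, counting error only). With no filter on low counts, edgeR put Nts at 2.86 on the log2 scale (SE 0.85; adjusted p = 0.128). Nts was thus the least abundant member with GFP and in the direction opposite to Cort.

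The members largely moved together from library to library. NeuroD1 replicate 2 held the lowest level of 8 of the 10 members and NeuroD1 replicate 3 the highest of 8, whereas these libraries were lowest and highest for 22.4% and 8.58% of all tested genes. In all 9 tested members the NeuroD1 libraries spread more than the GFP libraries on the log2 scale, against 62.8% of all tested genes. The standard deviation of log2(CPM + 0.5) over the NeuroD1 libraries was 1.59 for Penk, 1.41 for Npy, 1.24 for Sst and 0.95 for Cck, against a median of 0.34 over all tested genes. In the GFP libraries it was 0.44, 0.28, 0.26 and 0.15 for the same genes, against a median of 0.27.

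Pan-neuronal genes moved across the libraries too: 9 of the 10 were lowest in NeuroD1 replicate 2, and their geometric mean was 399.0, 224.4 and 313.9 CPM in the GFP libraries and 366.2, 154.0 and 442.6 CPM in the NeuroD1 libraries. Each member, with 0.5 added to its count and not to its CPM, was scaled to that mean within its library, a scale added after the levels were seen. Vip and Pdyn then had a log2 standard deviation of 0.08 each over the NeuroD1 libraries, against 0.76 and 0.83 before scaling. The spread within NeuroD1 was smaller for 9 of the 10 members on this scale, and within GFP for 2 of the 10. Sst was at log2 levels of -1.96, -1.10 and -1.15 relative to pan-neuronal genes with GFP and at -2.48, -2.55 and -1.58 with NeuroD1. The Sst groups still overlapped (difference -0.80, two-sided exact permutation p = 0.2, 1 of 10 such comparisons). Cort remained lower in each NeuroD1 library on this scale (difference -3.12) and Nts higher (2.84). Each had an exact permutation p of 0.1, the smallest that 3 against 3 can give, and 0.4 after adjustment over the 10 members. Both genes had a library with a count of 0, so the size of these differences depends on the 0.5 added. Penk differed by 1.21 (exact permutation p = 0.3), with NeuroD1 replicates 2 and 3 above all GFP libraries and replicate 1 within their range.

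**Figure D3:**
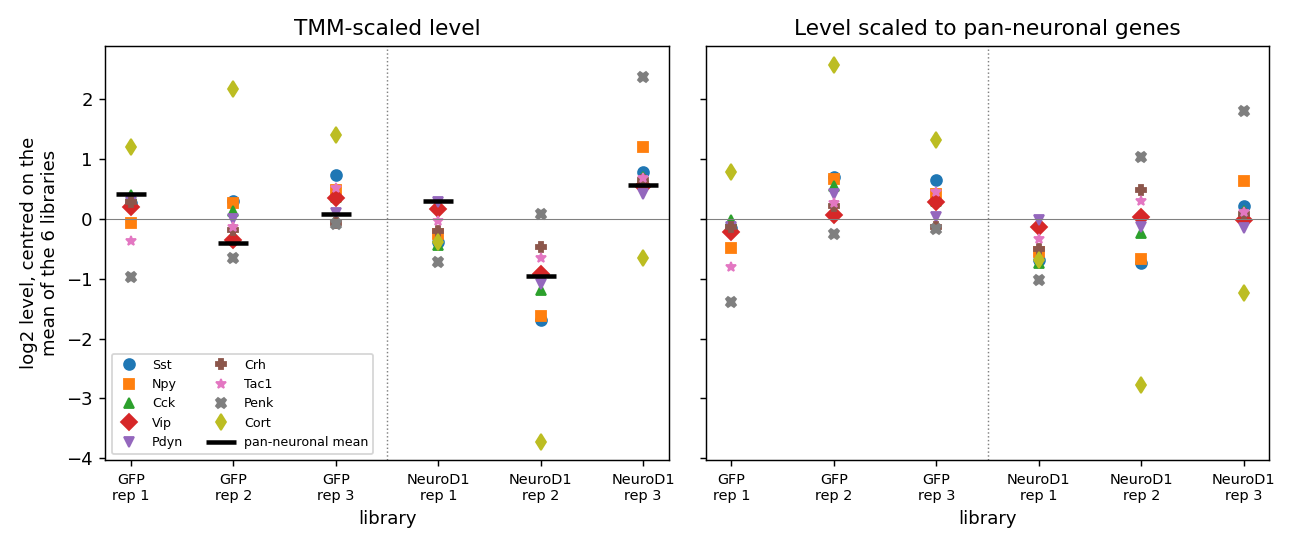
Log2 levels of the 9 tested members in each library, centred on each gene's mean over the 6 libraries, on the TMM scale (left, with the mean of 10 pan-neuronal genes as black bars) and after scaling to those pan-neuronal genes (right). Most members follow the pan-neuronal mean down in NeuroD1 replicate 2, where it is lowest, and Cort and Penk stay apart from the rest on the right.

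Ratios of peptide genes within a library do not depend on library scaling. Cort counted 13.8, 26.8 and 11.5 per 1000 Sst counts in the GFP libraries and 6.89, 0 and 2.43 in the NeuroD1 libraries. On the log2 scale with 0.5 added to each count, the Cort to Sst ratio was -5.90 ± 0.63 with GFP and -8.22 ± 1.04 with NeuroD1 (SD, n = 3; difference -2.32, two-sided exact permutation p = 0.1, 0.32 adjusted over 8 ratios). With 5 added to each count the difference was -0.98, the groups overlapped and the exact permutation p was 0.2. The Npy to Sst ratio was higher in each NeuroD1 library (-0.10 ± 0.19 against -0.50 ± 0.15, difference 0.41, exact permutation p = 0.1, adjusted 0.32). Among the NeuroD1 libraries Sst varied 5.62-fold and Npy 7.16-fold, while the number of Npy counts per Sst count lay between 0.85 and 1.09. The Tac1 to Penk ratio was -2.38 ± 0.05 with GFP and -2.27, -3.70 and -4.64 in NeuroD1 replicates 1, 2 and 3 (exact permutation p = 0.4). Tac1 rests on 24 to 67 counts per library (28, 25 and 49 with GFP), so the small SD with GFP does not show a constant ratio. The Pdyn to Penk ratio was likewise -0.45, -2.63 and -3.41 in the NeuroD1 libraries, against -0.20, -0.80 and -1.27 with GFP (exact permutation p = 0.3). Crh to Vip differed by 0.12 (exact permutation p = 0.7).

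Relative to the geometric mean of the GABA synthesis and vesicle genes Gad1, Gad2 and Slc32a1, Sst was at 1.22 ± 0.69 with GFP and -0.09 ± 0.67 with NeuroD1 (difference -1.31, exact permutation p = 0.2). Npy (difference -0.90) and Vip (-0.59) were on the same side, each with an exact permutation p of 0.2 and overlapping groups (0.32 adjusted for all 3). The GABAergic genes themselves overlapped between the groups. Gad2, the synaptic form of glutamate decarboxylase, was at 62.4, 29.4 and 41.0 CPM with GFP and at 94.7, 50.1 and 107.1 CPM with NeuroD1 (log2 fold change 0.92, SE 0.36; adjusted p = 0.177). Among 17 tested genes of interneuron subclasses, 0 passed edgeR's test after adjustment, 0 DESeq2 and 0 limma-voom, and 4 had an unadjusted edgeR p under 0.05, a share near the 24% of all genes. These were Lamp5 and Sncg, markers of the neurogliaform and of a Cck-expressing class, at lower fitted levels (log2 fold changes -0.70 and -1.26), Pvalb, the marker of fast-spiking cells, named after its values were seen, also lower (-0.66), and Reln, an extracellular signal of superficial interneurons, higher (1.09). Their adjusted p lay between 0.141 and 0.196. The median of the list was 0.04.

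**Figure D4:**
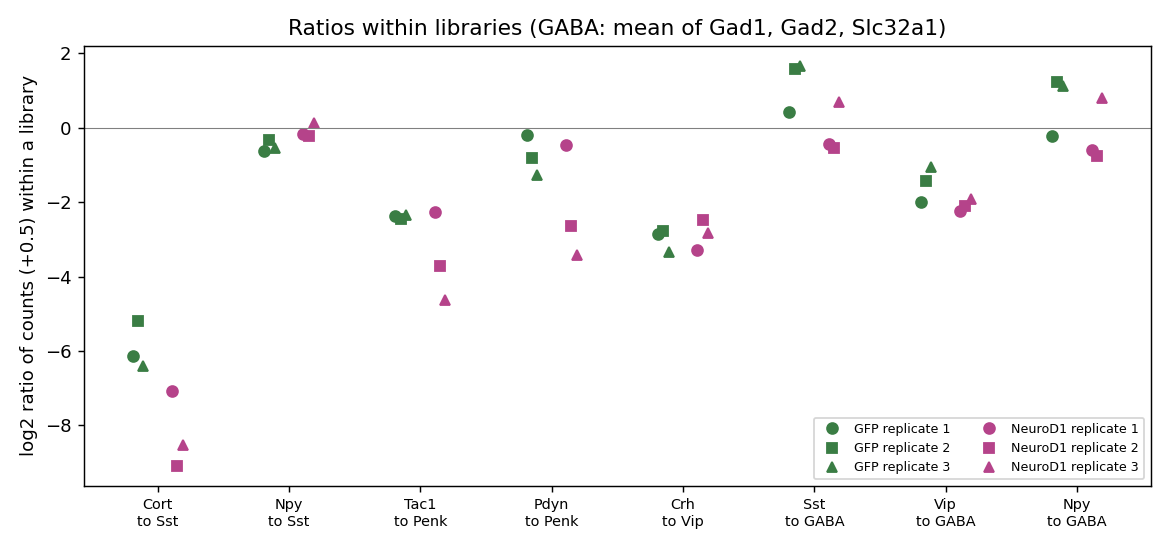
Log2 ratios of counts (0.5 added) within each library for 5 pairs of peptide genes and for Sst, Vip and Npy against the mean of 3 GABAergic genes; symbols are libraries. The groups are apart for Cort to Sst, though not with 5 counts added, and for Npy to Sst, and overlap for the other 6.

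The receptors of these peptides were all in the table, and 19 of 24 had enough counts to be tested (the list adds the PACAP receptor gene Adcyap1r1, and Sstr5, Cckar, Tacr2, Tacr3 and Oprm1 were not tested). None passed edgeR's test after adjustment, 2 had an unadjusted p under 0.05 against 24% of all genes, and the median was 0.09. DESeq2 called 1, against 8.99% of all genes, and limma-voom 0. The groups did not overlap in 3 of the 19, all lower with NeuroD1, against 15.3% lower among all tested genes. Ntsr2, the neurotensin receptor that astrocytes carry, was at 178.5, 223.3 and 163.5 CPM with GFP and at 53.9, 63.3 and 86.1 CPM with NeuroD1. Every NeuroD1 library was below every GFP library (log2 fold change -1.48, SE 0.25; edgeR adjusted p = 0.136, DESeq2 adjusted p = 6.26e-05). Ntsr1, the other G protein-coupled neurotensin receptor, overlapped between the groups (0.39, SE 0.57; adjusted p = 0.689), as did the sorting receptor Sort1 (0.46, SE 0.28; adjusted p = 0.332). Crhr1, the main receptor for Crh, was at 13.8, 13.5 and 18.0 CPM with GFP and at 8.96, 4.64 and 9.96 CPM with NeuroD1, without overlap (-0.94, SE 0.33; adjusted p = 0.157). Vipr1 was also below the GFP range in each NeuroD1 library (26.0 to 31.6 against 11.8 to 23.1 CPM; adjusted p = 0.265), while the log2 fold change of Vipr2 was -0.41 (adjusted p = 0.643).

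The somatostatin receptor genes, which also bind cortistatin, had overlapping groups. Sstr1, Sstr2, Sstr3 and Sstr4 had log2 fold changes of 0.76, 0.22, -0.06 and 0.94, with adjusted p between 0.424 and 0.943. The neuropeptide Y receptors Npy1r, Npy2r and Npy5r were at -0.29, 0.79 and -0.17 (adjusted p between 0.356 and 0.857). The cholecystokinin receptor Cckbr, the abundant cortical form, was at -0.21 (adjusted p = 0.740). The opioid receptors of the enkephalins and dynorphins, Oprd1 and Oprk1, were at 1.40 and 0.29 (adjusted p = 0.291 and 0.806), and Tacr1, the substance P receptor, at 0.94 (adjusted p = 0.263). Crhr2 was at -0.42 (adjusted p = 0.687).

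**Figure D5:**
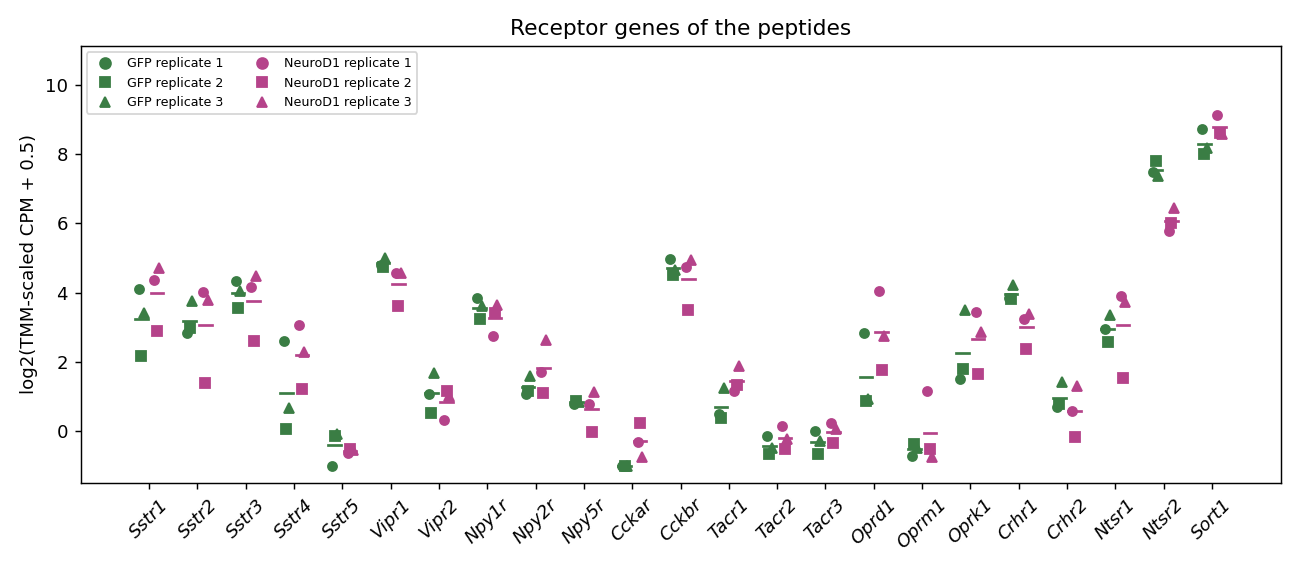
TMM-scaled CPM of the receptor genes of the 10 peptides on a log2(CPM + 0.5) axis; symbols are libraries and bars the means of the log2 values of a group. Ntsr2, Crhr1 and Vipr1 have NeuroD1 libraries that all lie below the GFP libraries, and most other receptors overlap. Of all tested genes, 15.3% also lie lower without overlap.

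Among 24 other neuropeptide genes and binding proteins, 14 were tested. After adjustment 0 passed edgeR's test and 0 limma-voom, DESeq2 called 1 (Pomc), and 4 had an unadjusted p under 0.05, 2 in each direction, with a median of 0.01. These counts lie near the 8.99% and 24% of all genes. Gal, which encodes galanin, a peptide known to be induced in injured neurons, was at 0, 3.47 and 7.06 CPM with GFP and at 34.0, 40.2 and 13.6 CPM with NeuroD1. Each NeuroD1 library exceeded each GFP library (log2 fold change 3.06, SE 0.93; adjusted p = 0.141). Gal was highest in NeuroD1 replicate 2, where Sst, Npy and Cck were lowest. Pomc, the melanocortin and endorphin precursor, was at 2.13, 3.47 and 3.15 CPM with GFP and at 1.05, 0.87 and 1.17 CPM with NeuroD1 (-1.48, SE 0.40; adjusted p = 0.138, and 0.0462 with DESeq2). Avp, the vasopressin precursor, was at 1.34 to 2.93 CPM with GFP and at 7.68, 11.3 and 1.80 CPM with NeuroD1, with overlap (adjusted p = 0.170). Gal, Pomc and Avp are also hypothalamic markers, and the other peptides of that list (Hcrt, Pmch, Agrp and Oxt) had too few counts to be tested, at no more than 2.52 CPM in any library.

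Genes for peptide processing and dense core granules were all tested. Of these 15, 0 passed edgeR's test after adjustment, 0 by DESeq2 or limma-voom, and 4 had an unadjusted p under 0.05 (3 higher, 1 lower), near the 24% of all genes, with a median of 0.44. Pcsk1n, an inhibitor of the prohormone convertases, was at 606.3, 680.0 and 669.7 CPM with GFP and at 235.0, 250.8 and 576.5 CPM with NeuroD1, below the GFP range in each library (-0.88, SE 0.37; adjusted p = 0.197). The granule protein gene Scg2 was at 60.4, 39.8 and 49.9 CPM with GFP and at 114.0, 50.1 and 108.2 CPM with NeuroD1 (0.86, SE 0.33; adjusted p = 0.174). Ctsl, a protease that also works in lysosomes of macrophages, was at 481.0 to 538.3 CPM with GFP and at 963.4, 1517 and 537.6 CPM with NeuroD1 (adjusted p = 0.173). Of 10 peptide-degrading enzymes, 0 passed with edgeR or limma-voom, 2 with DESeq2, and 4 had an unadjusted p under 0.05, all at higher fitted levels, with a median of 0.49. Over all genes 8.99% passed with DESeq2, and 12.5% had an unadjusted p under 0.05 at a higher fitted level. Prep, prolyl endopeptidase, was at 19.9 to 26.8 CPM with GFP and at 31.4 to 56.1 CPM with NeuroD1 without overlap (0.87, SE 0.26; adjusted p = 0.140). Lnpep, an aminopeptidase that cleaves several small peptides, was at 3.91 to 24.4 CPM against 30.2 to 62.1 CPM (1.71, SE 0.59; adjusted p = 0.157). Mme, neprilysin, which degrades enkephalins and tachykinins, was at 3.85, 1.20 and 4.45 CPM with GFP and at 10.5, 12.4 and 3.68 CPM with NeuroD1 (1.46, SE 0.57; adjusted p = 0.178). Leukocyte and macrophage markers, which can also carry these proteases, summed to 856.7 to 1031 CPM with GFP and to 1126 to 3259 CPM with NeuroD1, and their part in these values was not tested.

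Several peptide genes respond to neuronal firing, so activity-regulated genes were set beside them. Of 14 tested, 0 passed edgeR's test after adjustment or limma-voom, DESeq2 called 2, and 5 had an unadjusted p under 0.05, 2 higher and 3 lower, with a median of 0.26. Over all genes these shares were 8.99% and 24%. Nr4a1, an early-response nuclear receptor, was at 29.7, 51.0 and 32.2 CPM with GFP and at 17.6, 16.2 and 17.6 CPM with NeuroD1 (-1.13, SE 0.25; adjusted p = 0.136). Npas4, a transcription factor induced by synaptic activity, was at 5.27, 15.4 and 11.4 CPM with GFP and at 0.83, 3.77 and 2.96 CPM with NeuroD1 (-2.09, SE 0.58; adjusted p = 0.139). Both were lower without overlap, as were 15.3% of all tested genes. Of the 14 activity-regulated genes, 9 had a fitted level above that of GFP and 5 below. Egr2 was at 1.52 to 3.61 CPM with GFP and at 6.03, 13.5 and 3.23 CPM with NeuroD1 (adjusted p = 0.181). Fos was at 11.0 to 14.1 CPM against 7.90 to 16.0 CPM (adjusted p = 0.935, named after its values were seen).

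The genes most like each member were those with the smallest root mean square difference of centred log2 levels over the 6 libraries, among the tested genes of at least 5 CPM on average (12558 or 12559 besides the member itself). For Sst these were Rab26, a GTPase gene of secretory vesicles, and Serp2 (differences 0.09 and 0.18), for Npy Uchl1 and Trnp1 (0.15 and 0.19), and for Cck Pdxp and Fbll1 (0.08 and 0.13). Vip was most like Nudt11 and Gal3st3 (0.05 and 0.06), Pdyn most like the potassium channel gene Kcnk3 and the netrin receptor gene Unc5a (0.07 each), Crh most like Dtd1 and Kcnip4 (0.06 and 0.07), and Tac1 most like Trp53i11 and Ydjc (0.13 each). Cort was most like the NMDA receptor subunit gene Grin2c (0.19) and the potassium channel gene Kcnh4 (0.26). At the 0 to 2.80 CPM of Cort the added 0.5 narrows its differences, so this match depends on that value. The fitted log2 fold changes were -2.73 for Cort, -1.70 for Grin2c and -1.83 for Kcnh4. Grin2c was at 83.0, 103.2 and 70.7 CPM with GFP and at 27.7, 19.0 and 32.6 CPM with NeuroD1. No gene came close to Penk, for which Hap1 and Tmem91 were nearest at 0.62 and 0.66. Within the members, Sst and Npy (0.25) and Vip and Pdyn (0.20) were nearest to each other, and the member nearest to Cort was Sst, at 0.73. These values describe patterns over 6 libraries and are not a test.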

How the data were processed

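Total RNA of 6 cortex samples was sequenced, per the labels. The deposited values are raw counts of reads by gene symbol, and per the file headers featureCounts made them with mm10 genes. The submitters' processing notes list GRCm38 with HISAT2 2.0.1 and DESeq2 1.16.1 but give no roles. For strandedness, annotation release and read filtering the status is: not given in the sources used here. With the strand setting unknown, reads of Penk and of the antisense transcript A830012C17Rik that overlaps it cannot be told apart. GENCODE M21 gave no other overlap for the members. The 10 members and the gene lists were chosen with earlier results of these data known.

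Counts were tested with edgeR 4.0.16 in R 4.3.3 (quasi-likelihood F-test, TMM scaling, treatment as the only term). Genes were filtered with filterByExpr (minimum count 10, minimum total 15), which left 14852 genes. Benjamini-Hochberg adjustment covered all of these, at a threshold of 0.05. Standard errors and 95% intervals come from the F statistic and its degrees of freedom. Levels are TMM-scaled CPM, in which 1 count is worth 0.0753 to 0.134 CPM. Exon lengths and positions come from GENCODE M21 (GRCm38) and promoters from RefSeq. Ratios were compared by two-sided exact permutation tests, whose smallest p is 0.1. Libraries of 1 group differed by more than sampling noise (chi-square per gene of 33.8 to 126.3). Named genes were all members and their receptors, the 3 genes with the smallest p of each peptide, interneuron and activity list, and the 2 genes most like each member. The rule also took 2 genes of each other list, of which only those that stand beside a member are named. The alternatives were DESeq2 1.42.0, limma-voom (limma 3.58.1), other scalings and filters, a looser threshold, a replicate block, and leaving out each library. Scaling to pan-neuronal genes was added after the data were seen. The edgeR step was tested on simulated data.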

Additional observations from a re-analysis of the deposited data

How the results depend on the processing

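Of all genes, 0 passed edgeR, 1374 passed DESeq2, and 479 passed edgeR with a replicate block. Of the members, 0 passed edgeR and 1, Cort, passed DESeq2 (adjusted p = 0.0217; 0.0852 with the block). With 1 library left out, 0 to 1 genes and 0 members passed, and the member median lay between -0.37 and 0.26. At an adjusted p under 0.1, 0 genes passed. The labels do not say that the same numbers pair samples, so the main fit held no block. Deviations of same-numbered samples had correlations of 0.56, 0.39 and 0.03 for numbers 1, 2 and 3. GFP replicate 3 correlated best with NeuroD1 replicate 2 (0.14). With 3 samples per group these correlations cannot decide whether the numbers pair samples.

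The sign of 5 small differences flipped. Crh was at -0.030 with limma-voom and -0.019 with upper quartile scaling, and Tac1 at -0.025 with upper quartile scaling. With 1 library left out, Crh ranged from -0.34 to 0.26, Tac1 from -0.35 to 0.37, Vip from -0.37 to 0.27, Npy from -1.02 to 0.42 and Pdyn from -0.36 to 0.22. The cause was not tested. Sst (-1.33 to -0.12), Cck (-1.06 to -0.06), Penk (0.27 to 2.17) and Cort (-3.29 to -2.20) kept their sign. The Cort to Sst ratio was -0.98 with 5 counts added in place of 0.5, and the groups then overlapped (exact permutation p = 0.2); it lay between -2.90 and -1.89 with 1 library left out. A minimum count of 30 removed Cort from the test. Cort and Nts rest on 21 counts or fewer per library, which limits their precision.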

Other observations

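Among the peptide and receptor genes with too few counts to be tested, the groups did not overlap in CPM in 5 of 15 besides Nts (33.3%), against 11.8% of all 4580 untested genes with a count and 29.6% of tested genes. The 4580 include genes with only 1 count in total, whose groups must overlap, so these shares are not a like comparison. All 5 genes without overlap were named after their values were seen. Calca, the precursor of calcitonin gene-related peptide, had 0, 2 and 5 counts with GFP and 11, 6 and 17 with NeuroD1. Prok2, a prokineticin, had 0 counts in each GFP library and 1, 3 and 2 with NeuroD1. Cckar, a cholecystokinin receptor, had 0 counts in each GFP library and 4, 7 and 1 with NeuroD1. Calcb had 1, 2 and 3 counts with GFP and 0, 0 and 1 with NeuroD1, and Agrp 6, 4 and 6 against 5, 5 and 2. In counts the groups of Calcb meet at 1 and those of Agrp overlap, and only the scaling to CPM sets them apart. The NeuroD1 libraries were deeper, and none of these genes was tested.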
